A study of Mus musculus with 6 samples.

Results

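The genes described here are 10 regulators of the G1 phase of the cell cycle in mouse embryonic stem cells: the D-type cyclin genes Ccnd1, Ccnd2 and Ccnd3, the E-type cyclin genes Ccne1 and Ccne2, the kinase genes Cdk2, Cdk4 and Cdk6, and the pocket protein genes Rb1 and Rbl2. They were chosen by symbol, by a rule that uses no measured value but was written with earlier results of these data known, and all 10 were found among 52870 gene rows. RNA sequencing compared 3 control libraries (genotype Rbbp4F/F) with 3 libraries of Rbbp4-/- cells, called knockout here. Cells of both groups had the C57BL/6 background. The labels do not state how or when the gene was deleted, which exons were lost, how many lines or clones were used, or whether replicates were grown as separate cultures, so the p-values below reflect no more than the spread seen among 6 libraries, and that spread may be technical. The comparison asks how transcript levels differ when Rbbp4, which encodes a histone-binding subunit of several chromatin complexes, is deleted.

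As background, a cell leaves G1 when cyclin-dependent kinases phosphorylate the retinoblastoma protein Rb and its relatives, which otherwise hold E2F transcription factors in check. Cdk4 and Cdk6 act with D-type cyclins, which answer to growth signals, and Cdk2 acts next with E-type cyclins. Rbbp4 was itself first known as a protein that binds Rb. Mouse embryonic stem cells are known for a short G1 phase with little hypophosphorylated Rb and with high cyclin E and Cdk2 activity.

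Values are FPKM, fragment counts scaled by transcript length and by the library total, so levels can be compared between genes. Means are given ± SD with n = 3 libraries per group. Log2 fold changes, also called log2 differences, are knockout minus control of log2(FPKM + 1), which understates the change of low genes. A gene is said to have risen or fallen where its limma p-value was below 0.05 after Benjamini-Hochberg adjustment across the 13579 genes tested.

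The targeted gene separated the groups. Rbbp4 had 58.5, 57.0 and 61.8 FPKM in control replicates 1 to 3 and 21.3, 12.7 and 11.1 FPKM in knockout replicates 1 to 3 (log2 difference −1.96 with SE 0.22 and limma adjusted p = 3.94e-04). The knockout mean of Rbbp4 was 25.45% of the control mean, so its transcript was reduced and not absent. Exons of the antisense genes Sync and Gm26722 cover 18.0% of its exonic length, and the strand setting of the counting is not known. Estimated depth was 25900000 to 28600000 fragments per library, at which 1 fragment on a 2 kb transcript is worth 0.0175 to 0.0193 FPKM. Of all tested genes 59.1% were called, 4978 higher and 3051 lower. Scaling moved that split, to 3838 and 3992 (28.3% and 29.5%) by median ratios and to 3989 and 3866 (29.5% and 28.6%) by upper quartiles. It became 6080 and 2380 (44.7% and 17.5%) with equal FPKM sums, and 5785 and 2530 (42.5% and 18.6%) with totals taken without the 20 most abundant genes. Across tested genes the log2 fold change had a median of 0.17 as deposited, −0.01 with median-ratio scaling and 0.31 with equal sums. Of 8 embryonic stem cell markers 7 fell, beside 22.5% of all tested genes. The 8 summed to 4705 to 4855 FPKM in the controls and 1390 to 2175 FPKM in the knockout libraries. Of 8 trophoblast markers 6 rose, beside 36.7% of all tested genes. These 8 summed to 113.2 to 169.3 FPKM in the controls and 2188 to 3934 FPKM in the knockout libraries. Krt8 and Krt18, keratin genes of simple epithelia in general, made up nearly all of the knockout sum, at means of 1586 and 1575 FPKM. Cdx2 had a knockout mean of 1.52 FPKM, and Eomes (2.90 and 2.88 FPKM) and Elf5 (1.29 and 1.99 FPKM) were not called. Cdx2 and Gata3 passed the filter only through the knockout libraries. The 6 primitive endoderm markers summed to 2.35 to 3.85 FPKM and 8.75 to 9.91 FPKM. The 10 fibroblast markers, included because feeder cells can be present, summed to 12.9 to 19.3 FPKM and 9.76 to 11.1 FPKM, and 9 of them were below the filter. Thy1 set that sum, falling from a mean of 14.8 to 7.68 FPKM. Of the other 9, 7 were higher in every knockout library than in every control, as were 41.3% of all tested genes. Those 9 are not among the tested genes, and none of them exceeded 0.98 FPKM. In bulk RNA a change in the number of cells of a type and a change in RNA per cell cannot be told apart, and the part of these marker shifts in the results below was not tested.

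Of the 10 G1 genes 9 passed the filter of 1 FPKM in 3 libraries, and 5 of these fell and 1 rose, where 22.5% of all tested genes fell and 36.7% rose. The genes that fell were Ccnd1, Ccnd3, Ccne1, Cdk4 and Cdk6, which include both kinase genes for D-type cyclins and, in each cyclin class, the gene with the highest level. The gene that rose was Rb1. Cdk2, Ccne2 and Rbl2 were tested and not called, and Ccnd2 lay below the filter. The median log2 fold change of the 9 was −0.42, beside 0.17 for all tested genes. The groups did not overlap in 6 of the 10 genes with lower and in 1 with higher knockout values, where this held for 25.5% and 41.3% of all tested genes (66.8% together). Those 6 are the 5 genes that fell and Cdk2.

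**Figure D1:**
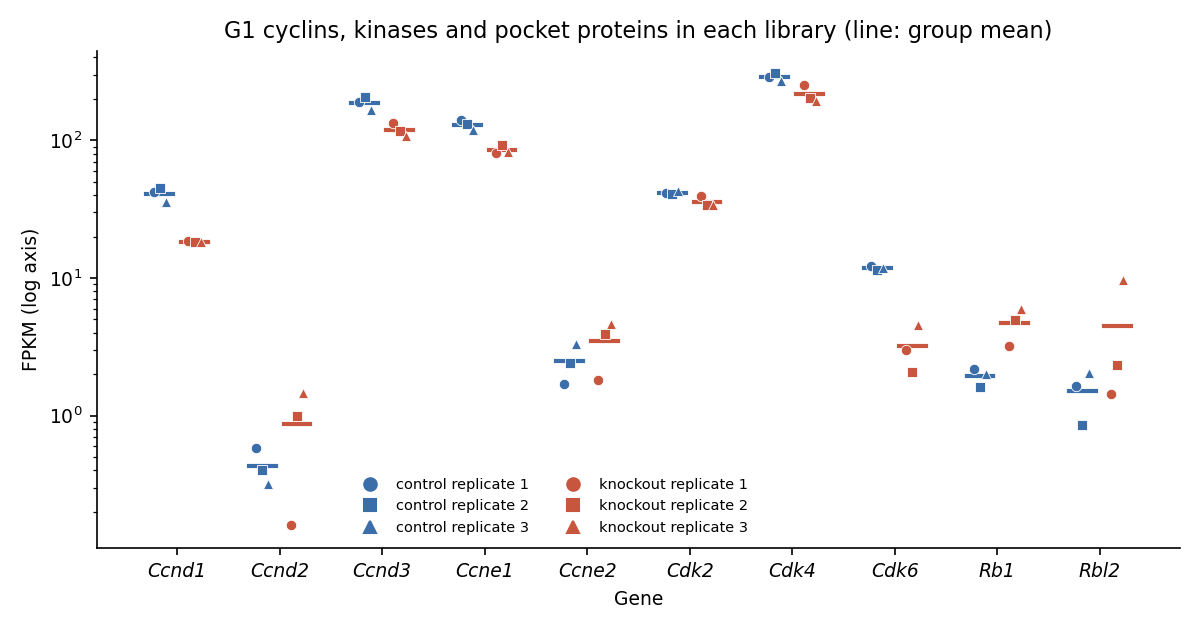
FPKM of each of the 10 genes on a log axis, in the 3 control libraries (blue) and the 3 knockout libraries (red), with a marker shape for each replicate number and a line at the group mean. Cdk4, Ccnd3 and Ccne1 stand highest in both groups, Ccnd1 and Cdk6 show the clearest separation downwards, and knockout replicate 3 stands apart in Rbl2.

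The levels spanned a wide range and the genes of the highest levels kept their places. In the controls the order of mean levels was Cdk4, Ccnd3, Ccne1, Cdk2, Ccnd1, Cdk6, Ccne2, Rb1, Rbl2 and Ccnd2. The ranges of neighbouring genes overlapped between Cdk2 and Ccnd1, between Ccne2 and Rb1, and between Rb1 and Rbl2, and were separate between the other neighbours. In the knockout libraries the first 5 genes held the same order and were separate from each other, and Cdk6 moved from rank 6 to rank 9, behind Rb1, Rbl2 and Ccne2. Neighbours among these last 4 genes overlapped, so their order there is not fixed by these libraries.

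The D-type cyclins bind Cdk4 and Cdk6 and begin the phosphorylation of Rb. Ccnd3 (ENSMUSG00000034165, GRCm38 chromosome 17, 47505051 to 47599691, plus strand, 8 exonic blocks) supplied most of the D-type cyclin transcript. It measured 190.0, 204.6 and 165.3 FPKM across control replicates 1 to 3, against 133.1, 117.6 and 107.6 FPKM across knockout replicates 1 to 3. Every knockout library was lower than every control library, and the mean fell from 186.6 ± 19.9 to 119.4 ± 12.9 FPKM (log2 difference −0.64 with SE 0.11 and limma adjusted p = 0.00269).

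Ccnd1 (ENSMUSG00000070348, GRCm38 chromosome 7, 144929931 to 144939925, minus strand, 5 exonic blocks) encodes cyclin D1, the family member best known as a target of mitogen and Wnt signalling. It measured 41.8, 44.7 and 35.8 FPKM across control replicates 1 to 3, against 18.7, 18.2 and 18.2 FPKM across knockout replicates 1 to 3. The 3 knockout values lay close together, and the groups were far apart. The mean fell from 40.8 ± 4.56 to 18.4 ± 0.266 FPKM, a 2.22-fold difference (log2 difference −1.10 with SE 0.10 and limma adjusted p = 1.90e-04). Exons of the antisense neighbour LTO1 cover 23.4% of the exonic length of Ccnd1. LTO1 moved the other way, from 7.19 ± 2.97 to 20.3 ± 6.90 FPKM (log2 difference 1.39 with limma adjusted p = 0.0135), and whether reads were assigned by strand is not given in the sources used here.

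Ccnd2 (ENSMUSG00000000184, GRCm38 chromosome 6, 127125162 to 127152193, minus strand, 7 exonic blocks) encodes cyclin D2 and was barely present. It measured 0.58, 0.40 and 0.32 FPKM across control replicates 1 to 3, against 0.16, 1.00 and 1.47 FPKM across knockout replicates 1 to 3. Knockout replicate 1 lay below all controls and knockout replicates 2 and 3 above them. The lowest value corresponds to at most 26 fragments, if all lay on the longest annotated transcript, and the highest to at most 238. Without a filter the log2 fold change was 0.32 (limma adjusted p = 0.45), and without knockout replicate 1 it was 0.64 (limma adjusted p = 0.0191).

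Added together, the D-type cyclin transcripts came to 232.4, 249.7 and 201.4 FPKM across the controls, against 151.9, 136.8 and 127.3 FPKM across the knockout libraries, without overlap. The shares of Ccnd1 and Ccnd3 in that sum did not overlap between the groups. Ccnd1 gave 17.8% to 18.0% of the sum in the controls and 12.3% to 14.3% in the knockout libraries, and Ccnd3 gave 81.8% to 82.1% and 84.5% to 87.6%. The ratio of Ccnd3 to Ccnd1, which does not depend on scaling between libraries, was 4.58 in the controls and 6.48 in the knockout libraries (geometric means). On the log2 scale the ratio was 2.20 ± 0.01 and 2.70 ± 0.14, a difference of 0.50 (two-sided exact permutation test, p = 0.10, adjusted p = 0.35 over 7 ratios). With 3 libraries against 3 the smallest p this test can give is 0.10, so none of the 7 ratios could pass 0.05.

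Both kinase genes for D-type cyclins fell. Cdk4 (ENSMUSG00000006728, GRCm38 chromosome 10, 127063534 to 127067920, plus strand, 6 exonic blocks) is the most abundant of the 10 transcripts. It measured 288.9, 306.2 and 270.4 FPKM across control replicates 1 to 3, against 250.7, 203.8 and 193.6 FPKM across knockout replicates 1 to 3. Knockout replicate 1 was the highest of its group and still below the lowest control. The mean fell from 288.5 ± 17.9 to 216.0 ± 30.5 FPKM (log2 difference −0.42 with SE 0.11 and limma adjusted p = 0.0148). The call was lost without control replicate 1 (limma adjusted p = 0.0512), without control replicate 2 (0.0585) and without knockout replicate 2 (0.0574). It was also lost when a change of at least 1.5-fold was required inside the test. Over the alternatives that tested for any difference the limma adjusted p ran from 0.00129 to 0.0585. Exons of the antisense gene Tspan31 cover 19.7% of Cdk4, and Tspan31 rose from 47.2 ± 0.810 to 62.0 ± 6.31 FPKM (limma adjusted p = 0.0103).

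Cdk6 (ENSMUSG00000040274, GRCm38 chromosome 5, 3341485 to 3531008, plus strand, 9 exonic blocks) showed the largest fold change among the 9 tested genes. It measured 12.2, 11.3 and 11.9 FPKM across control replicates 1 to 3, against 3.02, 2.07 and 4.59 FPKM across knockout replicates 1 to 3. The controls lay close together and all knockout libraries were far below them. The mean fell from 11.8 ± 0.438 to 3.23 ± 1.27 FPKM, a 3.66-fold difference (log2 difference −1.64 with SE 0.22 and limma adjusted p = 7.93e-04), which lies below the 5th percentile of all tested genes at −1.21. Cdk6 and Ccnd1 also passed when a change of at least 1.5-fold was required inside the test, which 6.18% of all tested genes did in the lower direction. Cdk6 made up 3.57% to 4.2% of the summed Cdk4 and Cdk6 transcript in the controls and 1.01% to 2.32% in the knockout libraries. The log2 ratio of Cdk6 to Cdk4 was −4.61 ± 0.13 and −6.13 ± 0.65, a difference of −1.52 (two-sided exact permutation test, p = 0.10, adjusted p = 0.35), with all knockout libraries lower.

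**Figure D2:**
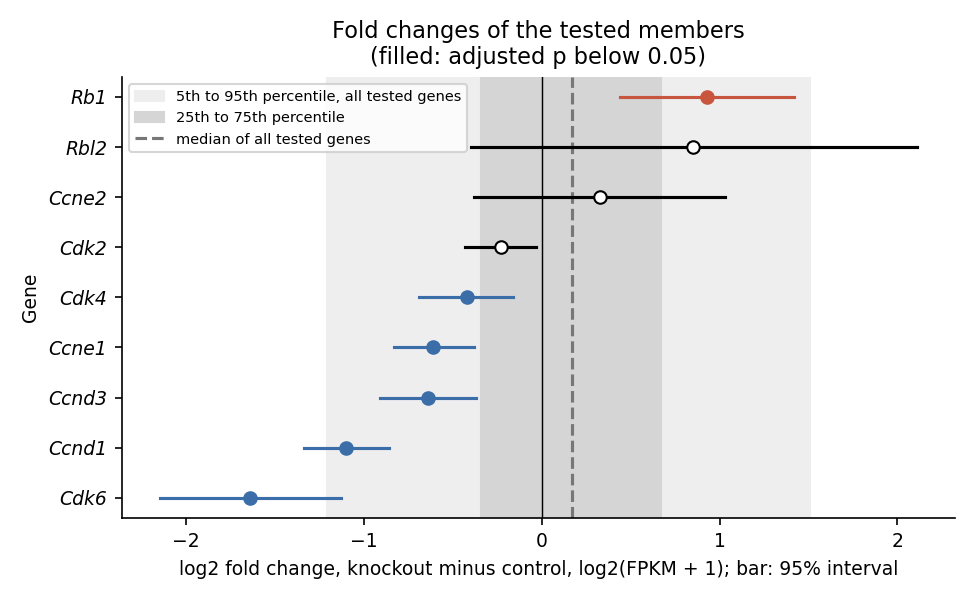
Log2 fold change, knockout minus control, of the 9 tested genes with 95% intervals from limma, filled where the adjusted p was below 0.05, over the 5th to 95th and 25th to 75th percentiles of all tested genes. Cdk6 at −1.64 lies outside the 5th percentile, and the interval of Rbl2, from −0.40 to 2.11, is the widest.

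The promoters of Cdk4 and Cdk6 are shown because both kinase genes fell and both windows hold E-boxes, the sequence CACGTG, to which Myc-family and other basic helix-loop-helix factors are known to bind. The windows are from RefSeq on GRCm38.p6, from 250 bases before to 50 bases after the annotated start, printed 5′ to 3′ on the gene's strand, with each E-box in capitals. Cdk4 is at chr10:127063285-127063584 and Cdk6 at chr5:3343643-3343942, both on the plus strand. The Cdk6 window lies inside the Cdk6 span given above, which begins at 3341485, so the 2 annotations place the start of Cdk6 differently.
Cdk4: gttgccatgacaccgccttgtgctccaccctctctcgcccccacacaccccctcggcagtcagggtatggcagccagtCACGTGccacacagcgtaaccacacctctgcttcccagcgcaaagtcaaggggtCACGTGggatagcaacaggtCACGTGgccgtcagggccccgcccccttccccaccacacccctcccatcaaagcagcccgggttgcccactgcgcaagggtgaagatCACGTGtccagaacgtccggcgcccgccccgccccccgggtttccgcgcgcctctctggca
Cdk6: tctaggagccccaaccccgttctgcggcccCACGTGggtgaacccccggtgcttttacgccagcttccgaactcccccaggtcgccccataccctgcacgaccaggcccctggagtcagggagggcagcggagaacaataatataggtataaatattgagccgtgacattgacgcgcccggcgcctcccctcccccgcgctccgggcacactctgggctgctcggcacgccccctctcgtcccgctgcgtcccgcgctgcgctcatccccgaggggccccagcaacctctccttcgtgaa
The Cdk4 window holds 4 E-boxes, whose first bases lie at −172, −118, −98 and −11 from the start, and the Cdk6 window holds 1, at −220. Of 32544 distinct promoter windows of this length 7.2% hold at least 1 E-box and 8 windows hold at least 4. Of the 10 genes 6 had a promoter window, with 7 windows since Ccnd3 has 2 starts, and the windows of Ccnd3, Ccne1, Cdk2 and Rbl2 hold no E-box. Ccnd3 and Ccne1 also fell, and no window was available for Ccnd1, Ccnd2, Ccne2 and Rb1. The windows shown were chosen by both the fall and the motif, and a link between E-boxes and the falls was not tested. A pattern of E2F sites, TTTNNCGC on either strand, occurs once each in the windows of Cdk2 and Cdk6, and in 5.2% of all windows. The GC box GGGCGG, searched on either strand, occurs 6 times in the window of Cdk2, 4 times in that of Ccne1, 3 times in that of Cdk4, 2 times in each of Ccnd3 and once in that of Rbl2. Thus 6 of the 7 windows hold it, against 35.9% of all windows with at least 1. The 7 windows are 50.7% to 76.0% G or C, and the share over all windows was not matched for this. The CRE core TGACGT occurs once in the Cdk2 window and once in the downstream Ccnd3 window (7.6% of all windows). The AP-1 sequence TGANTCA occurs in none of the 7 windows (7.8% of all windows). The CHR sequence TTTGAA occurs once in Rbl2 (17.8%) and the TATA box TATAAA once in Cdk6 (13.6%). The motifs were searched as letters and overlap between different motifs was allowed.

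The E-type cyclins activate Cdk2 at the entry to S phase. Ccne1 (ENSMUSG00000002068, GRCm38 chromosome 7, 38097984 to 38107534, minus strand, 11 exonic blocks) encodes cyclin E1, and no exon of another gene overlaps it. It measured 141.0, 130.2 and 119.2 FPKM across control replicates 1 to 3, against 80.2, 93.1 and 82.1 FPKM across knockout replicates 1 to 3. The groups did not overlap, and the mean fell from 130.1 ± 10.9 to 85.1 ± 6.96 FPKM (log2 difference −0.61 with SE 0.09 and limma adjusted p = 0.00157).

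Ccne2 (ENSMUSG00000028212, GRCm38 chromosome 4, 11191351 to 11204779, plus strand, 13 exonic blocks) encodes cyclin E2 and was far less abundant. It measured 1.71, 2.43 and 3.31 FPKM across control replicates 1 to 3, against 1.83, 3.95 and 4.64 FPKM across knockout replicates 1 to 3. Knockout replicate 1 lay within the control range and the other two above it (log2 fold change 0.33, 95% interval −0.38 to 1.03, limma adjusted p = 0.375). Without knockout replicate 1 the log2 fold change was 0.63 (limma adjusted p = 0.0474), the lowest limma adjusted p among its alternatives. Among those that tested for any difference the highest was 0.747, without knockout replicate 3. Exons of the antisense gene Ints8, which rose from 12.2 ± 0.387 to 18.6 ± 2.20 FPKM (limma adjusted p = 0.00399), cover 17.4% of Ccne2. Ccne1 gave 97.3% to 98.8% of the summed E-type cyclin transcript in the controls and 94.7% to 97.8% in the knockout libraries, and the sum went from 132.6 ± 10.1 to 88.6 ± 7.67 FPKM.

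Cdk2 (ENSMUSG00000025358, GRCm38 chromosome 10, 128697939 to 128705031, minus strand, 5 exonic blocks), the kinase gene for E-type cyclins, had the smallest difference of the 9 tested genes. It measured 41.5, 41.0 and 42.6 FPKM across control replicates 1 to 3, against 39.1, 33.8 and 33.7 FPKM across knockout replicates 1 to 3, so that the groups did not overlap. The log2 fold change was −0.23 (SE 0.09, 95% interval −0.43 to −0.03, limma adjusted p = 0.0539), which did not pass. Scaling by median ratios (−0.42, limma adjusted p = 0.00546) or upper quartiles (−0.39, 0.00588) made it pass, as did the fit without knockout replicate 1 (−0.30, 0.00503). Over the alternatives that tested for any difference the limma adjusted p ran from 0.00503 to 0.42, the latter with equal sums (−0.07). The log2 ratio of Cdk2 to Cdk4 was −2.79 ± 0.12 in the controls and −2.60 ± 0.08 in the knockout libraries, with overlapping groups (two-sided exact permutation test, p = 0.20, adjusted p = 0.35).

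The pocket proteins bind and restrain E2F factors until they are phosphorylated. Rb1 (ENSMUSG00000022105, GRCm38 chromosome 14, 73183673 to 73325822, minus strand, 31 exonic blocks) encodes Rb and was a low transcript in the controls. It had 2.17, 1.61 and 2.02 FPKM there and 3.22, 4.92 and 5.93 FPKM in the knockout libraries. Every knockout library was higher than every control library, with knockout replicate 1 the lowest of its group. The mean rose from 1.93 ± 0.290 to 4.69 ± 1.37 FPKM, a 2.43-fold difference (log2 difference 0.93 with SE 0.21 and limma adjusted p = 0.00735). Lpar6, a receptor gene that lies antisense within the span of Rb1, covers 6.8% of its exonic length and rose from 1.41 ± 0.123 to 3.32 ± 0.629 FPKM (limma adjusted p = 0.00349). Rcbtb2, which is antisense and overlaps the 3′ end of Rb1 over 8.1% of its exonic length, had 30.0 ± 4.18 and 32.4 ± 1.97 FPKM (limma adjusted p = 0.428). Without strand, reads in those stretches cannot be assigned to one gene.

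Rbl2 (ENSMUSG00000031666, GRCm38 chromosome 8, 91070057 to 91123844, plus strand, 21 exonic blocks) encodes p130, the pocket protein typical of resting cells. It measured 1.63, 0.86 and 2.03 FPKM across control replicates 1 to 3, against 1.44, 2.34 and 9.69 FPKM across knockout replicates 1 to 3. Knockout replicate 3 alone set the high mean, and knockout replicate 1 lay within the control range (log2 difference 0.85 with SE 0.53 and limma adjusted p = 0.203). Without knockout replicate 3 the log2 fold change was 0.22 (limma adjusted p = 0.527). Of the antisense genes, Aktip covers 9.2% of Rbl2 and had 21.9, 26.4 and 24.3 FPKM in the knockout libraries, and Gm45464 covers 11.8% and had at most 0.07 FPKM in any library. The third member of the family, Rbl1, which encodes p107 and was named after its value was seen, had 4.03 ± 0.247 and 3.83 ± 0.307 FPKM and was not called. Rb1 gave 24.6% to 26.9% of the summed transcript of the 3 pocket protein genes in the controls and 30.0% to 44.5% in the knockout libraries.

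**Figure D3:**
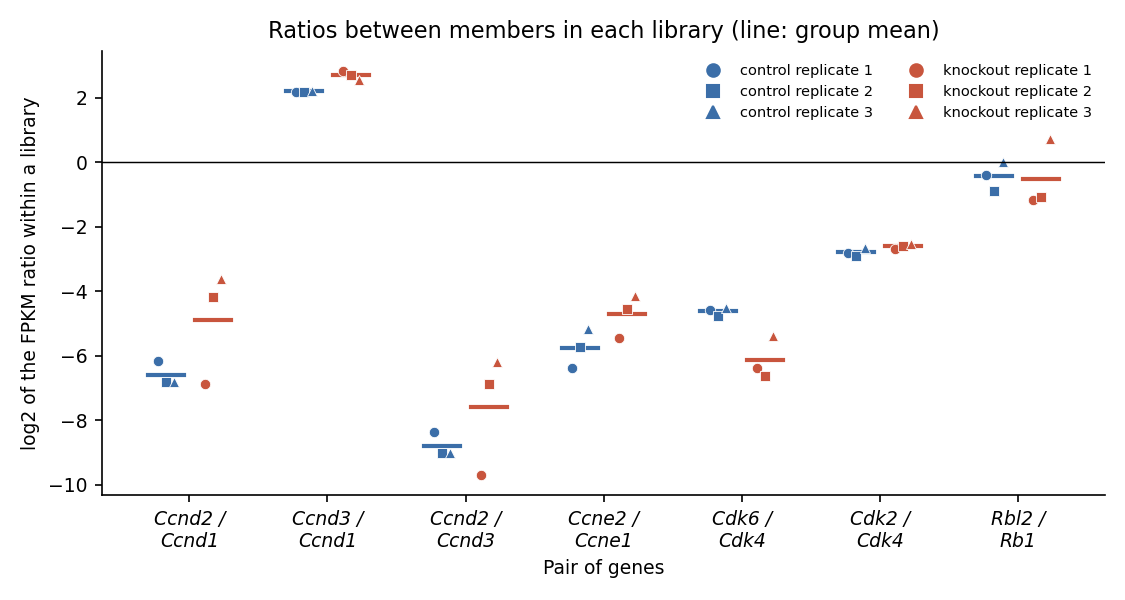
Log2 of the ratio of FPKM values within each library for 7 pairs of the genes, controls in blue and knockout libraries in red, with a line at the group mean. The groups are separate for Ccnd3 to Ccnd1 and for Cdk6 to Cdk4 and overlap in the other 5 pairs.

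Of the other ratios, those of Ccnd2 to Ccnd1 and of Ccnd2 to Ccnd3 differed by 1.70 and 1.20 on the log2 scale (two-sided exact permutation test, p = 0.40 each, adjusted p = 0.467), with SDs of 1.73 and 1.86 in the knockout libraries. The ratio of Ccne2 to Ccne1 differed by 1.04 (two-sided exact permutation test, p = 0.20, adjusted p = 0.35) and that of Rbl2 to Rb1 by −0.07 (two-sided exact permutation test, p = 0.90, adjusted p = 0.90). Knockout replicate 1, the knockout library with the most Rbbp4, lay nearest to the control mean of the 3 knockout libraries in 7 of the 9 tested genes. It did so in 48.9% of all tested genes.

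Cdk inhibitors bind these kinases or their cyclin complexes and block them. Of 7 Cdk inhibitor genes 4 rose and 1 fell, beside 36.7% and 22.5% of all tested genes. Cdkn1a, which encodes p21, rose from 29.0 ± 3.71 to 121.3 ± 10.1 FPKM (log2 difference 2.03 with limma adjusted p = 4.38e-05), and Cdkn2a, which encodes p16Ink4a and p19Arf, from 21.1 ± 3.46 to 40.4 ± 4.28 FPKM (0.91, limma adjusted p = 0.00155). Cdkn1c, which encodes p57, fell from 53.3 ± 0.270 to 35.2 ± 8.60 FPKM (−0.62, limma adjusted p = 0.0206), a call lost without control replicate 1, 2 or 3 (limma adjusted p = 0.0597, 0.0607 and 0.0605), with no filter (0.0514), with equal sums (0.0746) and without the 20 most abundant genes in the totals (0.0590). Cdkn2b and Cdkn2c, the genes of p15 and p18, also rose (log2 differences 1.41 and 0.52) and were named here after seeing their values. Cdkn2c had 0.70 to 0.88 FPKM in the controls and 1.44 to 1.65 FPKM in the knockout libraries, so it passed the filter only through the latter. Cdkn1a had 0.618 to 0.768 times the FPKM of Cdk2 in the controls and 2.90 to 3.93 times in the knockout libraries. The summed D-type cyclins had 6.09 to 7.32 times the summed FPKM of Cdkn2a, Cdkn2b, Cdkn2c and Cdkn2d in the controls and 1.97 to 2.71 times in the knockout libraries. These ratios compare transcripts, not proteins, and no test was run on them. The Cdkn2a value does not separate p16Ink4a from p19Arf.

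Of 11 genes of E2F factors, their partners and Rbl1, 2 rose and 3 fell, beside 36.7% and 22.5% of all tested genes. E2f6, a repressor of the family that acts without pocket proteins, rose from 14.5 ± 1.92 to 34.1 ± 1.46 FPKM (log2 difference 1.19 with limma adjusted p = 2.14e-04), and E2f7, another repressor, from 9.19 ± 2.98 to 18.9 ± 5.26 FPKM (0.98, limma adjusted p = 0.0166), a call lost without knockout replicate 2 (limma adjusted p = 0.0537). E2f2, an activator, fell from 1.79 ± 0.333 to 0.613 ± 0.0723 FPKM (−0.78, limma adjusted p = 0.00331). It passed the filter only through the controls, with 1.52 to 2.16 FPKM there and 0.53 to 0.66 FPKM in the knockout libraries. E2f4, which works with pocket proteins, fell from 133.5 ± 3.98 to 106.9 ± 7.64 FPKM (−0.32, limma adjusted p = 0.00985), a call lost with equal sums (−0.16, limma adjusted p = 0.0628). With median-ratio or upper-quartile scaling 6 of the 11 fell, beside 29.5% and 28.6% of all tested genes. Of 23 genes that E2F factors are known to drive at the G1 to S transition 15 fell and 0 rose, beside 22.5% and 36.7% of all tested genes, and their median log2 fold change was −0.48, beside 0.17 for all tested genes. With median-ratio or upper-quartile scaling 18 of the 23 fell, beside 29.5% and 28.6% of all tested genes. With equal sums, or with totals without the 20 most abundant genes, 12 fell, beside 17.5% and 18.6%. At an unadjusted p below 0.05 in limma 1 of the 23 was higher, Chaf1a, named after its value was seen. The count of genes called higher was 1 with equal sums, with totals without the 20 most abundant genes, and without knockout replicate 1 or 3. In those fits 44.7%, 42.5%, 39.9% and 33.3% of all tested genes were called higher. Cdc6, which loads the replicative helicase, fell from 55.2 ± 3.54 to 26.4 ± 1.21 FPKM, and Uhrf1, a cofactor of maintenance DNA methylation, from 181.0 ± 4.22 to 83.3 ± 9.87 FPKM.

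Of 11 activators and partners of the kinases 6 fell and 0 rose, beside 22.5% and 36.7% of all tested genes. The small subunits Cks2 and Cks1b, which bind cyclin-dependent kinases, fell, Cks2 from 197.0 ± 21.5 to 131.0 ± 3.43 FPKM and Cks1b from 193.3 ± 8.54 to 151.6 ± 4.92 FPKM, while Cdc37, the chaperone partner of Cdk4, named after its value was seen, had 232.7 ± 0.770 and 232.9 ± 3.23 FPKM. This count depended on the scaling, with 10 lower with median-ratio scaling (29.5% of all tested genes) but 2 lower and 2 higher with equal sums (17.5% and 44.7%). With equal sums Cks1b lost its call (−0.19, limma adjusted p = 0.0567). The count was 3 lower without control replicate 2, control replicate 3 or knockout replicate 2, beside 18%, 17.8% and 17.9% of all tested genes. No gene of the list had a higher level at an unadjusted p below 0.05 in limma. Of the 5 tested genes of S and M phase cyclins and Cdk1, 4 fell, among them Ccnb2 (log2 fold change −1.07) and Ccnb1 (−0.93), beside 22.5% of all tested genes, and 0 rose, beside 36.7%, also at an unadjusted p below 0.05 in limma. Of these 5 genes, 5 fell with median-ratio or upper-quartile scaling, beside 29.5% and 28.6% of all tested genes. With equal sums, or with totals without the 20 most abundant genes, 3 fell, beside 17.5% and 18.6%. Ccna1 and Ccnb3 lay below the filter.

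Of 12 genes of the ubiquitin ligases that mark G1 cyclins and inhibitors for degradation 5 rose and 2 fell, beside 36.7% and 22.5% of all tested genes, and 9 were higher with equal sums, beside 44.7%. Fbxo4, an F-box gene implicated in the turnover of cyclin D1, rose from 0.990 ± 0.215 to 7.37 ± 0.410 FPKM (log2 difference 2.08 with limma adjusted p = 6.45e-05), and the cullin gene Cul4b from 44.2 ± 1.59 to 120.1 ± 27.8 FPKM (1.40, limma adjusted p = 4.72e-04). Fbxo4 had 0.77 to 1.20 FPKM in the controls and 6.90 to 7.65 FPKM in the knockout libraries, so it passed the filter only through the latter. Skp2, the F-box gene whose product targets p27, fell from 20.3 ± 0.455 to 11.9 ± 1.64 FPKM (−0.73, limma adjusted p = 0.00185), and its adaptor gene Skp1a from 300.7 ± 13.9 to 180.6 ± 32.8 FPKM (−0.75, limma adjusted p = 0.00310).

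Of 14 tested genes of transcription factors known to act at D-type cyclin genes 9 rose and 1 fell, beside 36.7% and 22.5% of all tested genes. Among the 9, Fos, named after its value was seen, passed the filter only through the knockout libraries. It had 0.47 to 0.95 FPKM in the controls and 6.55 to 7.02 FPKM in the knockout libraries. Jun, a subunit of AP-1, rose from 7.33 ± 0.529 to 38.4 ± 4.07 FPKM (log2 difference 2.24 with limma adjusted p = 3.33e-05), and Rela, the NF-kB subunit p65, from 11 ± 0.518 to 33 ± 1.58 FPKM (1.5, limma adjusted p = 4.98e-05). Mycn was the 1 that fell, from 113.2 ± 10.7 to 12.1 ± 1.38 FPKM (−3.12, limma adjusted p = 1.44e-05). Myc, named after its value was seen, had 24.4 ± 3.81 FPKM in the knockout libraries, within a range that overlapped that of the controls (limma adjusted p = 0.0932). With median-ratio or upper-quartile scaling 2 genes of this list fell, beside 29.5% and 28.6% of all tested genes. Without control replicate 3 also 2 fell, beside 17.8%.

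Requiring 1.5-fold inside the test, which 11.3% of all tested genes passed higher and 6.18% lower, left smaller counts in these lists. It left 2 Cdk inhibitors higher and 0 lower, 1 gene of the E2F list higher and 0 lower, and 2 ligase genes higher and 0 lower. Of the kinase activators 0 were then lower, of the S and M phase genes 2, and of the E2F target genes 4. Among the genes named above it ended the calls of Cdkn2a, Cdkn1c, E2f7, E2f2, E2f4, Cks2, Cks1b, Skp2 and Skp1a.

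**Figure D4:**
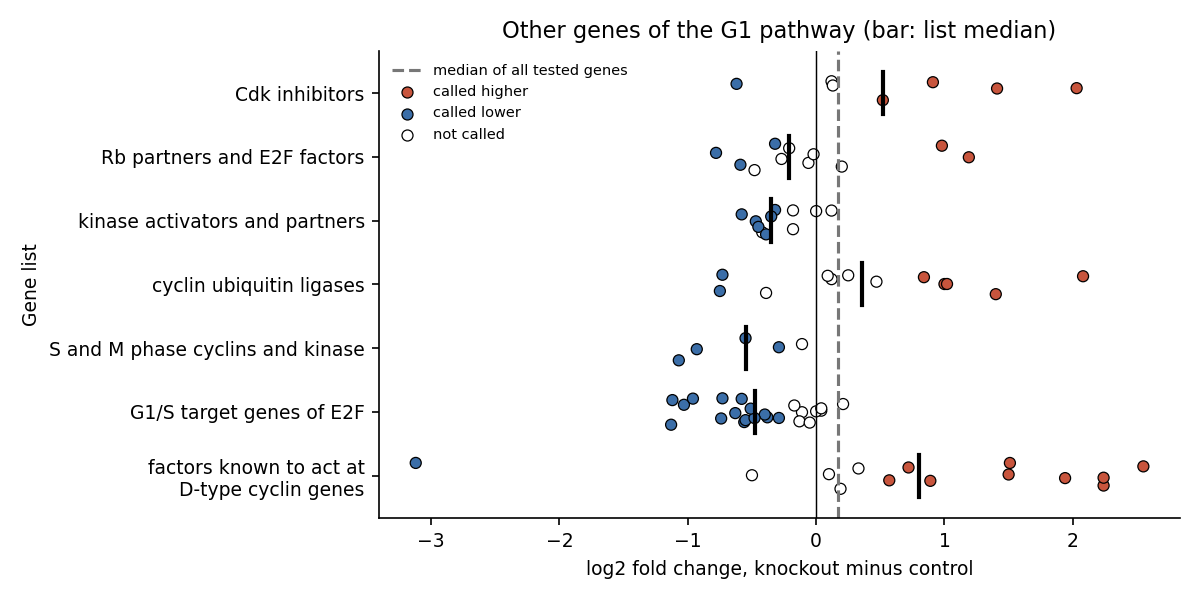
Log2 fold change of each tested gene of 7 lists of the G1 pathway, red where called higher, blue where called lower and white where not called, with a bar at the list median and a dashed line at the median of all tested genes. Cdk inhibitors and the factors known to act at D-type cyclin genes lie mostly to the right and the E2F target genes to the left, with Mycn alone at −3.12.

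The genes with profiles most like those of the member that rose and the member that fell most were found among all tested protein-coding genes by the Euclidean distance between centred log2(FPKM + 1) values over the 6 libraries. For Rb1 they were Crk (distance 0.115), Pafah1b1 (0.149) and Vcpip1 (0.15). For Cdk6 they were Cers4 (0.371), Rbm44 (0.406) and Nod1 (0.428). Cers4 and Rbm44 passed the filter only through the controls. Their knockout values were 0.79 to 1.99 FPKM for Cers4 and 0.20 to 0.70 FPKM for Rbm44. The mean of Rbm44 differed 7.85-fold between the groups, beside 3.66-fold for Cdk6, because log2(FPKM + 1) compresses low values.

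With a library left out the filter was 1 FPKM in 2 libraries, which let Ccnd2 be tested in 4 of the 6 fits. Leaving out control replicate 1, 2 or 3 gave 1, 1 and 1 member higher and 4, 4 and 5 lower, beside 29.9%, 30.7% and 31.4% of all tested genes higher and 17.2%, 18% and 17.8% lower. Leaving out knockout replicate 1, 2 or 3 gave 3, 1 and 1 higher and 6, 4 and 5 lower, beside 39.9%, 30.3% and 33.3% of all tested genes higher and 25.6%, 17.9% and 19.3% lower. Requiring 1.5-fold inside the test left 0 members higher and 2 lower, beside 11.3% and 6.18%, and a filter of 5 FPKM left 0 higher and 5 lower, beside 38.3% and 25.5%. With the replicate number as a block 1 was higher and 5 lower, beside 35.9% and 21.4%.

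**Figure D5:**
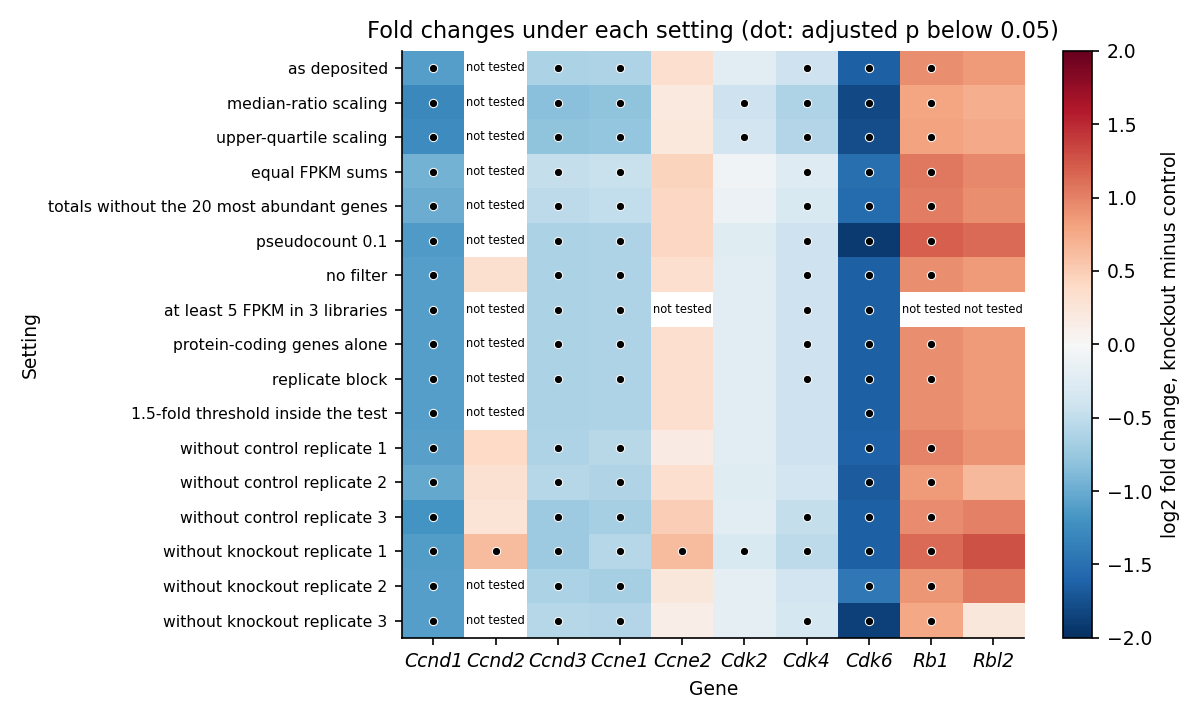
Log2 fold change of the 10 genes (columns) as deposited and under 16 alternatives (rows), coloured from blue (lower in the knockout) to red (higher), with a dot where the adjusted p was below 0.05. Ccnd1 and Cdk6 have a dot in every row, Cdk4 loses it in 4 rows, and Ccnd2, Ccne2 and Cdk2 all carry one without knockout replicate 1.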

How the data were processed

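Each of the 6 deposited tables gives an Ensembl gene identifier and a value per gene. The unit the authors deposited was taken as FPKM: values are not whole, and their sums differ between libraries. Per the submitters' processing notes the tools included FastQC, HISAT2 2.1.0, RSEM and DESeq 1.26.0, with the build GRCm38.p6. Their roles, the strand setting and the annotation release are not recorded there. Annotation text stood in place of an identifier in 2 rows per library, which were left out. Symbols came from GENCODE M21 (GRCm38).

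The test, limma 3.58.1 under R 4.3.3, ran on log2(FPKM + 1) of genes reaching 1 FPKM in 3 or more libraries (mean trend, group only, two-sided, Benjamini-Hochberg adjustment, threshold 0.05). Depth was estimated from the even spacing of low values of genes with 1 transcript, after subtracting 260 to 280 bases from transcript length; 83.6% to 86.3% lay within 0.15 of a whole number of fragments. No count model was used. Ratios between genes were compared within libraries by an exact permutation test. Members and lists were chosen with earlier results of these data known. Pathway genes named are the 2 called genes with the smallest p in each direction of each list, besides those marked as named after their values were seen. Promoters came from RefSeq.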

Additional observations from a re-analysis of the deposited data

How the results depend on the processing

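Over 16 alternatives Ccnd1 and Cdk6 stayed called lower, with log2 fold changes from −1.29 to −0.95 and from −1.91 to −1.43. Requiring 1.5-fold inside the test left 1535 genes higher and 839 lower, with 0 members higher and 2 lower, and ended the calls of Ccnd3 (−0.64), Ccne1 (−0.61), Cdk4 (−0.42) and Rb1 (0.93). A filter of 5 FPKM left 0 members called higher, since Rb1 was then not tested. Cdk2 became called lower with median-ratio (−0.42) and upper-quartile scaling (−0.39). Leaving out single libraries gave 1 to 3 members higher and 4 to 6 lower, with log2 fold changes from −0.53 to −0.35 for Cdk4, −0.30 to −0.19 for Cdk2, 0.13 to 0.63 for Ccne2 and 0.27 to 0.64 for Ccnd2. Without knockout replicate 1, the 3 higher were Rb1, Ccne2 and Ccnd2. No member's direction reversed in any alternative. With the replicate number as a block 4872 genes were higher and 2907 lower, with 1 and 5 members called as before. Correlations of the deviations from group means were 0, −0.01 and 0.05 for same-numbered libraries and −0.07 to 0.07 for the others. Whether same-numbered libraries share a culture or batch is not stated in the labels, and these correlations cannot decide it. The causes of these shifts were not tested. Depth limits Ccnd2 most, at 26 to 238 fragments per library at most.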
